A study of Homo sapiens with 8 samples.

Results

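The RNAs described here are the small nuclear RNAs (snRNAs) of CTCF AID2 SEM cells: every row of the deposited gene table that is annotated as snRNA and reached a TPM (transcript share scaled to a fixed total per library and corrected for length) of 1 in at least 1 library. The rule kept 179 of the 1910 snRNA rows, in a table of 60754 rows. Another 1721 snRNA rows were listed at 0 in all 8 libraries. The 10 remaining rows lay between these, the highest of them at 0.99 TPM, and the lowest maximum of a member was 1 TPM. The members were thus chosen by their TPM, and their levels are given as a description. Of the 179 members, 178 are spliceosomal snRNAs or copies of them, and the other is *RN7SK*, which carries the snRNA annotation but is not part of the spliceosome.

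The SEM line was established from human B-lineage leukemia with a rearranged *KMT2A* gene. In all the cells studied, both *CTCF* alleles carried the miniAID-mClover3 degron tag, and a lentiviral cassette under the MND promoter expressed OsTIR1(F74G), the adaptor that the auxin analog 5-Ph-IAA binds, together with Zeocin resistance. For each of the clones C17.2 and C3.2, 2 libraries were from parental (untreated) cells and 2 from resistant cells, and each line derives from 1 edited clone. Resistant cells were the survivors of 36 days in 1 μM 5-Ph-IAA plus Zeocin at 100 μg/ml, harvested after 48 h off both agents. C17.2 resistant cells carry a nonsense change that truncates CTCF before the tag, and C3.2 resistant cells carry a missense change in the tag itself. On immunoblots of C17.2 resistant cells after washout, the paper reports the full-length tagged CTCF again, beside the truncated form. RNA was total RNA depleted of ribosomal RNA. B-lineage marker genes summed to between 703 and 887 TPM per library, T cell markers to between 0 and 0.25 TPM, and myeloid markers to between 2.23 and 4.1 TPM.

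snRNAs are short nuclear RNAs that, with their proteins, form the small nuclear ribonucleoproteins (snRNPs) that remove introns. U1 pairs with the 5′ splice site and U2 with the branch point, U4 chaperones U6 into the spliceosome, U5 holds the exons, and U6 takes over the 5′ splice site and forms the catalytic center. A minor spliceosome uses U11, U12, U4atac and U6atac in place of U1, U2, U4 and U6 and shares U5. U1, U2, U4, U5 and U6 each exist as several functional genes. The dispersed copies of snRNAs are mostly considered pseudogenes.

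The sequences below are those on which the comparisons of copies turn. They are the Gencode 44 transcripts on GRCh38, each shown 5′ to 3′ as DNA letters on the strand of the RNA. For the main gene of a family, capitals mark the element that pairs with the pre-mRNA, which is the 5′ splice site element of U1 and U6atac and the branch point element of U2. For U4 the capitals mark the site bound by the Sm proteins. For a second copy, capitals mark the bases that differ from the gene above it, a deleted base leaving no mark.
RNU1-1 (chr1:16514122-16514285, minus strand): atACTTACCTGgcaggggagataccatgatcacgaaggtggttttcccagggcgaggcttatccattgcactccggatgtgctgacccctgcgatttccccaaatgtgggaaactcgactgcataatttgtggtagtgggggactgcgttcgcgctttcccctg
RNVU1-14 (chr1:145281116-145281279, plus strand): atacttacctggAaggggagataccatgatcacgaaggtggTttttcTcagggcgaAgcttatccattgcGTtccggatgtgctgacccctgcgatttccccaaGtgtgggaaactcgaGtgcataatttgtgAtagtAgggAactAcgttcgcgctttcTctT
RNU2-2P (chr11:62841619-62841809, minus strand): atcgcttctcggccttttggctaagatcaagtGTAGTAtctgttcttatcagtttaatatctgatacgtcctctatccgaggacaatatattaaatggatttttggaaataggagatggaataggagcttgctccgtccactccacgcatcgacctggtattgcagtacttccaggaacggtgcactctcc
RNU2-1 (chr17:43233787-43233977, minus strand): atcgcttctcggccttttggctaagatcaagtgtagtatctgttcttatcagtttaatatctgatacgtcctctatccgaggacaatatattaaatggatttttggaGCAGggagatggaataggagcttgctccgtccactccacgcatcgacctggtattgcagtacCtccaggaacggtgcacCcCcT
RNU4-2 (chr12:120291763-120291903, minus strand): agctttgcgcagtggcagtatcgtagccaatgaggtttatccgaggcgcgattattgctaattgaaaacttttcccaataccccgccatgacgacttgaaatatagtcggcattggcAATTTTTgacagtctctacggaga
RNU4-1 (chr12:120293097-120293237, minus strand): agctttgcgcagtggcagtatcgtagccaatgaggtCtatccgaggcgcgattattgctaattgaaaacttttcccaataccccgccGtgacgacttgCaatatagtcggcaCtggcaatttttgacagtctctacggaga
RNU6ATAC (chr9:134164439-134164564, minus strand): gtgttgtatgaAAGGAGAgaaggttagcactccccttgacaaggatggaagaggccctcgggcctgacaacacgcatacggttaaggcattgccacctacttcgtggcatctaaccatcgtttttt

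Counted from 1 at the 5′ end, *RNU4-1* differs from *RNU4-2* by T37C, A88G, A99C and T113C. *RNU2-1* differs from *RNU2-2P* at 8 bases, all 3′ of the branch point element. *RNVU1-14*, a more distant copy, is 90.9% identical to *RNU1-1* and keeps its capitalized element unaltered. *RNVU1-14* lies within an exon of the long non-coding gene ENSG00000276216 on the same strand. *RNU2-2P* lies within an exon of *WDR74* and *RNU2-1* in an intron of *CCDC200*, each on the same strand. *RNU6-33P* lies in an intron of *HERC3* on the opposite strand.

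The values are TPM that the authors estimated with RSEM, an expectation-maximization method that divides reads shared between genes. TPM keeps no record of depth, so library depth is unknown and the values carry no counting interval. Neither the labels nor the methods say that the 2 libraries of a group came from separate cultures, so p-values measure the spread between these libraries, which may be technical.

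C3.2 resistant replicate 2 stood apart from the other libraries. In the other 7 libraries, the shortest small RNA above 0 had between 94 and 101 bases, and between 39 and 83 small RNAs of up to 107 bases were above 0. In C3.2 resistant replicate 2 the shortest had 113 bases, and 0 small RNAs of up to 107 bases were above 0. All 73 U6 members, which have between 94 and 115 bases, were listed at 0 in that library, although every cell uses U6. U6 is therefore given with and without it.

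Copies of identical sequence could not be told apart. Of the 178 members with a sequence in Gencode 44, 36 fell into 7 groups of identical RNA sequence, among them 8 U1 copies and 11 U2 copies. *RNU1-3* was listed at 86145 TPM in C17.2 resistant replicate 1, and *RNU1-1*, with the same 164 bases, at 6933 TPM, a ratio of 12.4. In C17.2 resistant replicate 2 both stood at 20109 TPM. The 9 U1 copies that shared these values, 1 of them without a sequence in Gencode 44, summed to 146017 and 126648 TPM in C17.2 parental cells and to 150409 and 180984 TPM in C17.2 resistant cells. In C3.2 they summed to 128101 and 135860 TPM in parental cells and to 137870 and 122837 TPM in resistant cells. The sum is used for U1 in what follows, since the division between these copies varied from library to library, from equal values in some to the 12.4-fold gap in C17.2 resistant replicate 1.

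**Figure D1:**
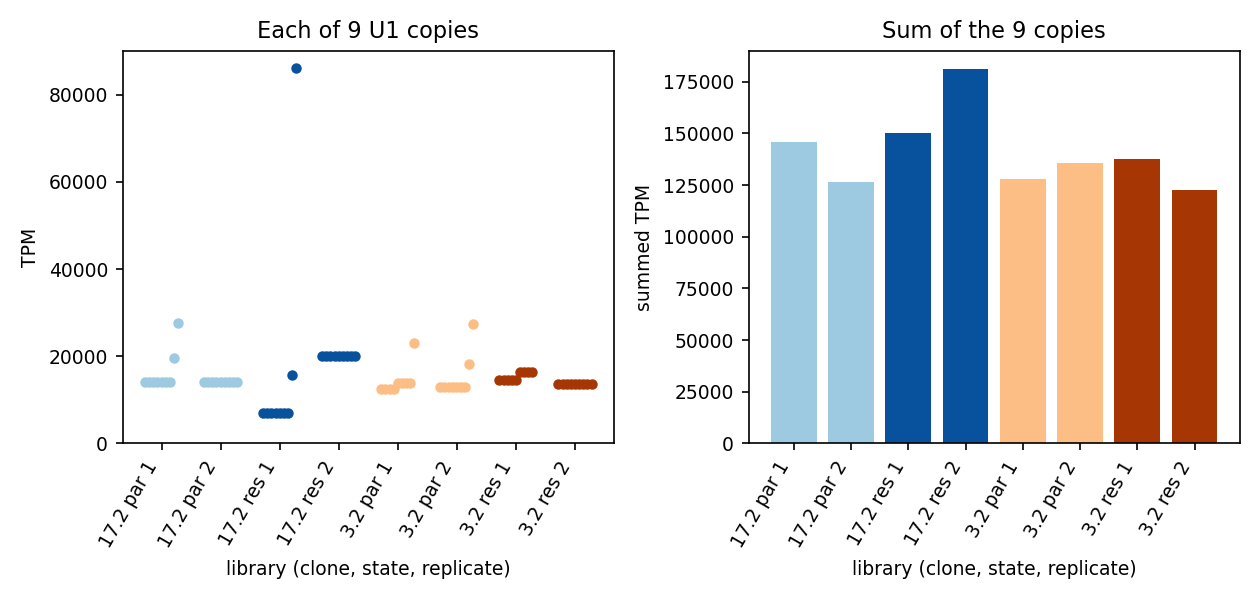
TPM of 9 U1 copies in each of the 8 libraries (by clone; par, parental; res, resistant; replicate 1 or 2). On the left each point is 1 copy, and *RNU1-3* stands at 86145 TPM in C17.2 resistant replicate 1 above the other copies; on the right the bars give the sum of the 9 copies, which ranged from 122837 to 180984 TPM.

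Annotated snRNAs made up 31.2% to 37.6% of library TPM. Spliceosomal members took between 18.4% and 24.7%, and *RN7SK* alone between 11.7% and 14.9%. Within the spliceosomal members the level was concentrated in few rows: 41 of the 179 members reached 1 TPM in all 8 libraries, and those among them that are spliceosomal held at least 99.4% of the spliceosomal TPM of each library. By contrast, 72 members reached 1 TPM in 1 library only. The symbols of 129 members end in P, the mark of an annotated pseudogene. They include *RNU2-2P*, used here as the main gene of its family, and *RNU1-27P* and *RNU1-28P*, which have the *RNU1-1* sequence. The suffix alone thus does not separate main genes from diverged copies. *RNU2-2P* serves as the reference for U2 sequence only: it held 39.0% to 46.0% of U2 TPM, less than the 11 copies with the *RNU2-1* sequence together.

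U1 was the most abundant family, with a mean of 153304 TPM over the 8 libraries from 44 members. U2 followed with 25125 TPM from 27 members. U4 and U5 did not separate, with means of 11940 and 11588 TPM and overlapping libraries. These levels are per length, as TPM is. U12, the branch point RNA of the minor spliceosome, had a mean of 2304 TPM, and U6atac and U4atac had means of 492 and 354 TPM.

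U6 reached between 776 and 1329 TPM in the 7 libraries in which it was above 0. That was below U4 and U5, its partners in the tri-snRNP, in every library. U6 had the most members, 73 of 1314 annotated copies, and 47 of them reached 1 TPM in 1 library only. *RNU11*, the 5′ splice site RNA of the minor spliceosome, and *RNU7-1*, the histone pre-mRNA processing RNA, were listed at 0 in all 8 libraries. As with U6 in C3.2 resistant replicate 2, a value of 0 does not show that an RNA was absent from the cells. Whether RNA length bears on these rows was not tested. The 2 U11 members were copies with symbols ending in P, at 2.79 TPM and 2.56 TPM in 1 library each.

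**Figure D2:**
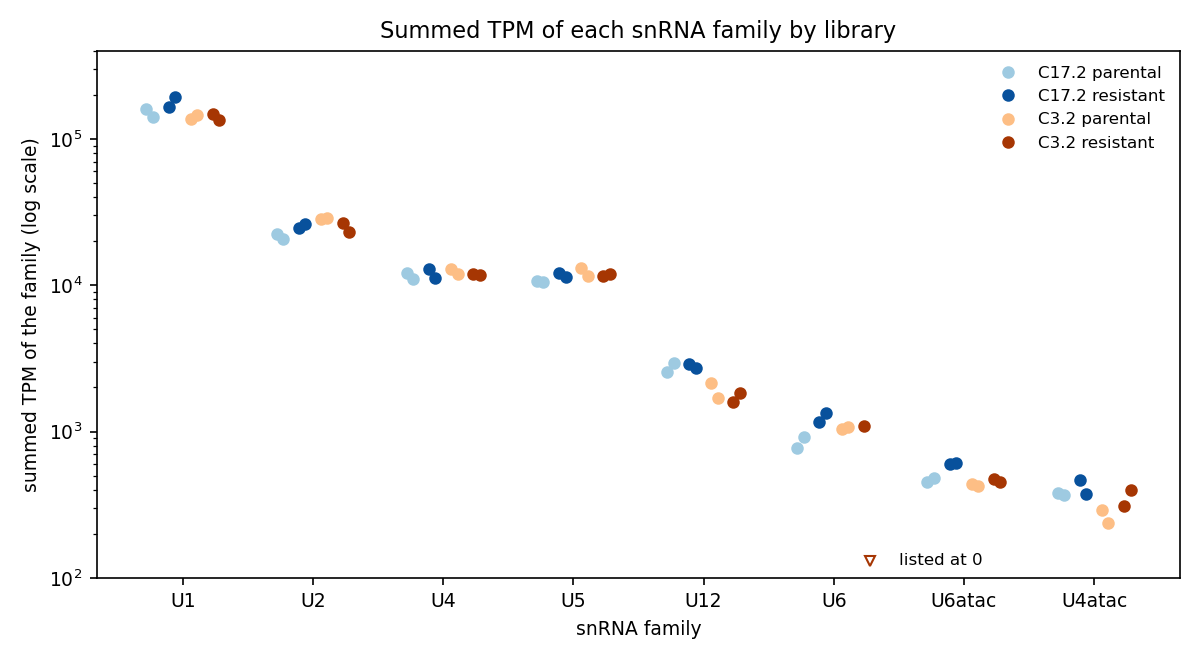
Summed TPM of each spliceosomal snRNA family (log scale) in the 8 libraries, 2 points for each clone and state. U1 had a mean of 153304 TPM and U4atac of 354 TPM, and the open triangle marks C3.2 resistant replicate 2, in which all U6 members were listed at 0.

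Position and sequence, which the rule did not use, were compared among the annotated snRNAs. Of the 138 members that reached 1 TPM in some but not all libraries and have a position in Gencode 44, 61.6% lay in a protein-coding gene on the same strand and 4.35% on the opposite strand. Of the 40 members at 1 TPM in all 8 libraries with a position, 17 (42.5%) lay on the same strand of a protein-coding gene, but 11 of these are the identical *RNU2-1* copies in the single host *CCDC200*. Of the other 29 members, 6 (20.7%) did. Among the 1723 snRNA rows that were not members, the shares were 23.0% on the same strand and 23.7% on the opposite strand. The sources used here do not give how strand was handled in counting.

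Members that reached 1 TPM in all 8 libraries were close to the main gene of their family in U1, U2 and U4, with median identities of 99.7%, 95.8% and 98.6%. For U2 the identities are those to *RNU2-2P*. U1 members at 1 TPM in fewer libraries had a median identity of 86.0%, U2 members of 72.8% and U4 members of 75.9%. Of the members at 1 TPM in all 8 libraries, 8 of 16 in U1 have the *RNU1-1* sequence and 11 of 12 in U2 the *RNU2-1* sequence. In U4 there were 2, the main gene among them. The medians and counts here thus rest partly on repeats of 1 sequence. In U5 the medians were closer, 87.9% for 6 members at 1 TPM in all 8 libraries and 82.8% for the other 3. The U1 element ACTTACCTG was present in 13 of the 16 U1 members at 1 TPM in all 8 libraries and in 34.2% of all annotated U1 copies with a sequence. The U2 element GTAGTA was present in 12 of 12 such U2 members and in 58.9% of annotated copies, and the U5 loop GCCTTTTAC in 6 of 6 and in 45.2%. In U6, ACAGAGA was present in 45 of 73 members and in 53.7% of annotated copies. Each element was searched on the RNA strand only, by exact letters. Copies near the main gene also share its reads, and the part of that in these counts was not tested.

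To ask whether acquired resistance was accompanied by a change in snRNA levels, resistant and parental cells were compared within each clone on log2(scaled TPM + 1) with limma, over 15614 genes. A gene was called at a Benjamini-Hochberg adjusted p under 0.05. When the members of each family were summed, no family was called: limma called 0 of 10 families in C17.2, where 27.8% of all features were called, and 0 of 10 in C3.2, where 11.6% were. The difference between the clones was called for 0 of 10 families, against 10.2% of all features. Among the 10, U6 could hardly be called in either clone, since its 0 in C3.2 resistant replicate 2 gave a standard error of 2.80. U11 reached at most 2.79 TPM. The 0 of 10 thus does not show that U6 or U11 was unchanged. In C17.2, U6atac was called on TPM as deposited, on the protein-coding scale, after quantile normalization, with genes at 1 TPM in all 8 libraries and without parental replicate 2. In C3.2, 2 families, U2 among them, were called without resistant replicate 1, as were 2 in the difference between the clones. At an unadjusted p under 0.05, limma gave 1 family in each comparison, U6atac in C17.2, U2 in C3.2 and U2 in the difference.

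U1 RNA summed to 160824 and 142090 TPM in C17.2 parental cells and to 165255 and 193115 TPM in C17.2 resistant cells. Its C3.2 sums were 136038 and 145812 TPM in parental cells and 148097 and 135201 TPM in resistant cells. The groups did not overlap in C17.2 and overlapped in C3.2. In bulk RNA, fewer cells of a kind and less RNA per cell cannot be told apart. After scaling, the log2 fold change was 0.08 with a 95% interval from -0.20 to 0.36 in C17.2, and -0.06 with an interval from -0.34 to 0.22 in C3.2 (adjusted p = 0.663 and 0.793, limma). The C3.2 value changed sign on TPM as deposited (0.0068).

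U4 and U5 also had intervals that included 0. The log2 fold change of U4 was -0.11 in C17.2 (95% interval from -0.35 to 0.14) and -0.14 in C3.2 (from -0.38 to 0.10). That of U5 was -0.02 in C17.2 (from -0.26 to 0.23) and -0.14 in C3.2 (from -0.39 to 0.10). The C17.2 values of both families were positive on TPM as deposited, on which the median of all genes tested shifted by 0.13 in that clone. *RN7SK*, the scaffold RNA that holds the elongation factor P-TEFb inactive, had log2 fold changes of -0.25 and 0.10 (adjusted p = 0.200 and 0.671, limma).

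**Figure D3:**
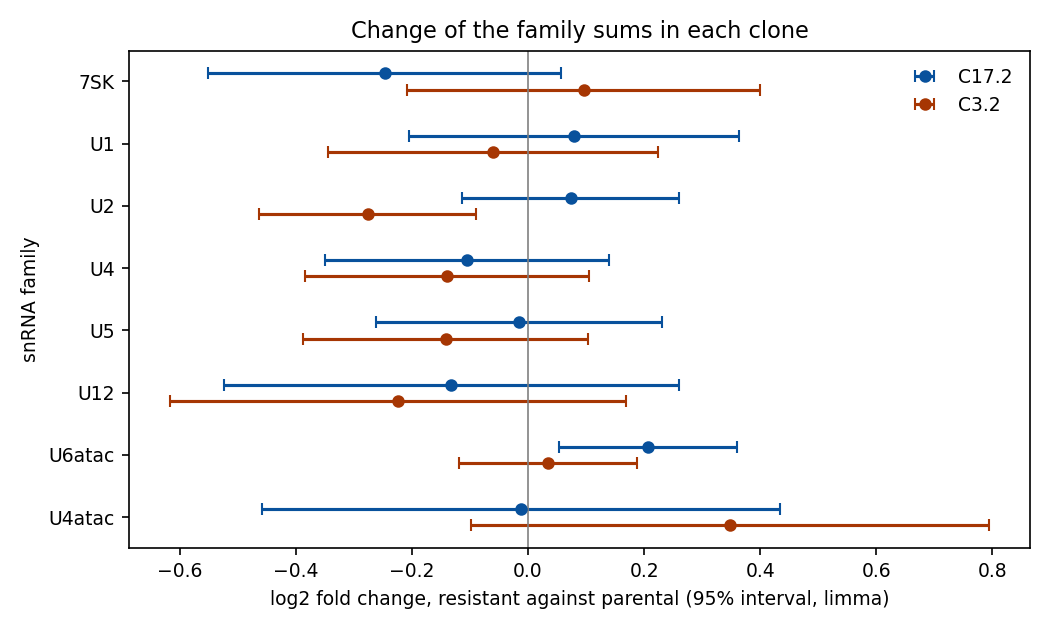
Log2 fold change of each family sum, resistant against parental, in C17.2 and C3.2, with the 95% interval from limma. The intervals include 0 except those of U6atac in C17.2 (from 0.05 to 0.36) and U2 in C3.2 (from -0.46 to -0.09), and neither of these passed the adjusted threshold; U6 and U11 are not drawn.

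U2 RNA summed to 28290 and 28892 TPM in C3.2 parental cells and to 26578 and 22991 TPM in C3.2 resistant cells. Both resistant libraries lay below both parental libraries. The log2 fold change of the sum was -0.28 with a standard error of 0.0779 (adjusted p = 0.0705, limma), and without replicate 2 of the resistant cells it was -0.21 (adjusted p = 0.115). In C17.2 the sums were 22455 and 20843 TPM in parental cells and 24728 and 26220 TPM in resistant cells, and the log2 fold change was 0.07 (adjusted p = 0.527, limma).

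Within U2, the 11 copies with the *RNU2-1* sequence fell in C3.2. They share 1 value, which was 1548 and 1597 TPM per copy in parental cells and 1403 and 1221 TPM in resistant cells. The groups did not overlap, and the log2 fold change was -0.33 with a standard error of 0.0566 (adjusted p = 0.0175, limma). Summed to 1 row, the 11 copies gave the same fold with an adjusted p of 0.0313. The call was lost on TPM as deposited (adjusted p = 0.118), without either C3.2 parental library (0.107 and 0.0973) and without either C17.2 parental library (0.0547 in both cases), and over the other alternatives in scaling, filter and model the adjusted p reached 0.374.

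*RNU2-2P*, the U2 gene outside the *RNU2-1* array, took a larger share of U2 RNA in resistant cells of both clones, although its own level was called in neither. It stood at 9478 and 8685 TPM in C17.2 parental cells and at 11380 and 12056 TPM in resistant cells, and in C3.2 at 11253 and 11280 TPM in parental cells and at 11138 and 9552 TPM in resistant cells. The C3.2 resistant libraries were thus below the parental libraries. Its share of U2 TPM was 42.2% and 41.7% in C17.2 parental cells and 46.0% in each library of C17.2 resistant cells. In C3.2 the share was 39.8% and 39.0% in parental cells and 41.9% and 41.5% in resistant cells. The groups did not overlap in either clone, and the differences were 4.06 and 2.32 percentage points. Such a lack of overlap was common: of the 17 shares computed, 11 did not overlap in C17.2 and 9 in C3.2. A share within 1 library does not depend on the scaling between libraries. Because *RNU2-2P* and *RNU2-1* differ at 8 bases, reads that cover none of them are divided by RSEM. How far that division, or reads of the host *WDR74*, bears on the share was not tested. An exact permutation test over both clones gave p = 0.0556 (two-sided), the smallest that 36 arrangements allow, and within 1 clone the smallest p is 0.333.

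*RNU4-2* showed the same pattern against *RNU4-1*, the neighboring U4 gene. Its share of their summed TPM was 56.0% and 57.6% in C17.2 parental cells and 62.3% and 62.6% in C17.2 resistant cells. In C3.2 it was 57.8% and 58.5% in parental cells and 60.5% and 61.4% in resistant cells. Again the groups did not overlap in either clone, with differences of 5.65 and 2.79 percentage points (exact permutation p = 0.0556 over both clones, two-sided, the smallest possible). Because the 2 genes differ at 4 bases, reads that cover none of them are divided by RSEM. On log2(scaled TPM + 1), *RNU4-1* had fold changes of -0.31 and -0.24 (adjusted p = 0.0847 and 0.216, limma) and *RNU4-2* of 0.03 and -0.07 (adjusted p = 0.848 and 0.699), in C17.2 and C3.2. The shares of *RNU2-2P* and *RNU4-2* are among 5 of the 17 shares computed that were chosen after values had been seen.

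**Figure D4:**
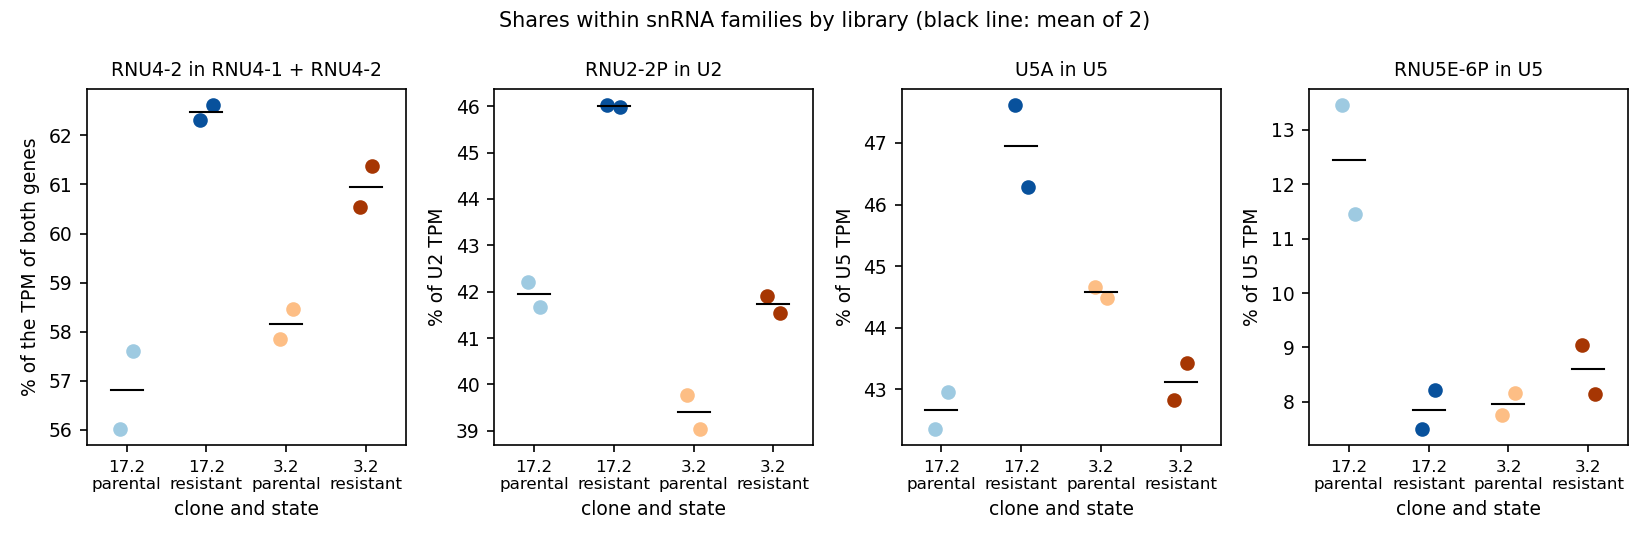
Percent of TPM taken by *RNU4-2* within *RNU4-1* plus *RNU4-2*, by *RNU2-2P* within U2, and by U5A copies and *RNU5E-6P* within U5, for each of the 8 libraries (points; the line is the mean of 2; the axes do not start at 0). The first 2 shares were higher in both resistant libraries than in both parental libraries of each clone, by 2.32 to 5.65 percentage points; the U5A share was higher in C17.2 resistant cells and lower in C3.2 resistant cells.

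U5A copies took 42.4% and 43.0% of U5 TPM in C17.2 parental cells and 47.6% and 46.3% in resistant cells. In C3.2 the share was 44.7% and 44.5% in parental cells and 42.8% and 43.4% in resistant cells. The groups did not overlap in either clone, in opposite directions, so the exact permutation p over both clones was 0.333. Of the 17 shares computed, 11 did not overlap in C17.2 and 9 in C3.2. Without symbols ending in P, the difference in C17.2 was 2.22 percentage points in place of 4.30. The U5E share was lower in C17.2 resistant cells (17.1% and 18.6%, against 24.4% and 20.7% in parental cells) and higher in C3.2 resistant cells (21.7% and 24.4%, against 20.1% and 20.3%). *RNU5A-1*, *RNU5B-1*, *RNU5D-1*, *RNU5E-1* and *RNU5F-1* were not called in either clone. *RNU5D-1*, a less abundant U5 gene, stood at 154 and 157 TPM in C17.2 parental cells and at 270 and 226 TPM in resistant cells (log2 fold change 0.50, adjusted p = 0.0660, limma).

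Part of the U5E difference in C17.2 lay in *RNU5E-6P*. This copy stood at 1433 and 1211 TPM in C17.2 parental cells and at 907 and 937 TPM in resistant cells. In C3.2 it stood at 1022 and 937 TPM in parental cells and at 1039 and 966 TPM in resistant cells. C17.2 parental cells were the high group, and the other 6 libraries lay between 907 and 1039 TPM. The log2 fold change in C17.2 was -0.68 with a standard error of 0.0769 (adjusted p = 0.00165, limma), and it was called under every alternative tried, with adjusted p up to 0.0189 when 1 library was left out. The difference between the clones was -0.64 (adjusted p = 0.0182), which was lost without C17.2 parental replicate 1, either C17.2 resistant library or C3.2 parental replicate 2 (adjusted p up to 0.0744), on TPM as deposited and with no filter (up to 0.0622). With the copies whose symbols end in P left out, the U5E difference in C17.2 was -0.54 percentage points in place of -4.69.

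Among the copies that were tested as separate genes, limma called 9 members in C17.2, 5 of them higher and 4 lower, and 17 in C3.2, 1 higher and 16 lower. In C17.2, 27.3% of all genes tested were called, 13.4% higher and 13.9% lower. In C3.2, 11.4% were called, 4.46% higher and 6.9% lower. The difference between the clones was called for 10 members, 7 higher and 3 lower, against 9.9% of all genes, 4.91% higher and 4.99% lower. Of the 16 lower members in C3.2, 11 are the *RNU2-1* copies, which are 1 measurement. In 5 of the 9 and in 5 of the 17 a group was listed at 0 in both libraries, so these members entered the test through the group in which they were above 0. The counts moved with single libraries: the count in C17.2 was 16 and 17 without parental replicate 1 and 2 of that clone, 15 and 36 without its resistant replicate 1 and 2, and 21 without either C3.2 resistant library. The count in C3.2 was 30 without its resistant replicate 1, 11 without either of its parental libraries and 4 without either C17.2 parental library. That of the difference between the clones was between 13 and 37 without any 1 library. On TPM as deposited, 17 of the 23 members called in C17.2 were higher.

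*RNVU1-14*, a variant U1 gene, moved in opposite directions in the 2 clones. It stood at 42.2 and 33.7 TPM in C17.2 parental cells and at 64.8 and 62.7 TPM in resistant cells. The C3.2 values were 82.1 and 81.5 TPM in parental cells and 38.3 and 39.4 TPM in resistant cells. The groups did not overlap in either clone. The log2 fold change was 0.58 with a standard error of 0.0851 in C17.2 (adjusted p = 0.00409, limma) and -1.12 with the same standard error in C3.2 (adjusted p = 0.00138). The difference between the clones was 1.70 (adjusted p = 0.00118). All 3 calls held under every alternative tried, and leaving out 1 library raised the adjusted p to at most 0.0373.

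*RNVU1-18* has the sequence of *RNU1-1*. *RNVU1-7*, which differs from it by T150C, was the most abundant distinct variant, at 12688 and 13356 TPM in C17.2 parental cells and at 12319 and 9863 TPM in resistant cells. In C3.2 it stood at 6297 and 8685 TPM in parental cells and at 9085 and 11173 TPM in resistant cells. It was not called in either clone (log2 fold changes -0.40 and 0.38, adjusted p = 0.199 and 0.284, limma). The share of all RNVU1 genes in U1 TPM was lower in resistant cells of both clones, with differences of -3.40 and -2.84 percentage points (exact permutation p = 0.0556 over both clones, the smallest possible). With *RNVU1-18* counted as a U1 copy, there remained a difference of -2.35 percentage points in C17.2 and of 1.87 in C3.2. *RNVU1-15*, at 5.31 and 2.29 TPM in C3.2 parental cells, was listed at 0 in both resistant libraries (adjusted p = 0.0499, limma), a call lost without any 1 of the 8 libraries (adjusted p from 0.0558 to 0.241).

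Among the U6 copies 5 were called, at low levels except for *RNU6-33P*. *RNU6-33P* was listed at 307 and 303 TPM in C17.2 resistant cells and at 0 in the other 6 libraries. It was a member, and was tested, through that group alone, so its p is not given as a result, and the same holds for the other copies listed above 0 in 1 group only. *RNU6-7* and *RNU6-8*, by contrast, were at 244 and 227 TPM each in the C17.2 parental libraries, where the 9 U6 copies closest to them, *RNU6-1*, *RNU6-2* and *RNU6-9* among them, were listed at 0. In C17.2 resistant cells all 11 stood at the same 28.3 TPM in replicate 1 and 49.2 TPM in replicate 2.

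With *RNU6-33P*, these near-identical copies summed to 488 and 454 TPM in C17.2 parental cells, to 618 and 845 TPM in C17.2 resistant cells, and to 487, 590 and 594 TPM in the 3 C3.2 libraries above 0. The whole U6 family was higher in C17.2 resistant cells (1162 and 1329 TPM) than in parental cells (776 and 921 TPM). Without C3.2 resistant replicate 2, its log2 fold change was 0.39 with a standard error of 0.116 in C17.2 (adjusted p = 0.0548, limma) and -0.08 in C3.2 (adjusted p = 0.802). With that library, the C3.2 value was -5.14 with a 95% interval from -11.8 to 1.58. The C17.2 value with that library was again 0.39, but with a standard error of 2.80 (adjusted p = 0.940, limma). The part of the shared reads in the value of *RNU6-33P* was not tested.

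The remaining called U6 copies had between 104 and 109 bases, near the length limit of the libraries. *RNU6-446P* was listed at 20.5 and 18.5 TPM in C17.2 resistant cells and at 0 in the other 6 libraries. *RNU6-31P* was listed at 8.28 and 13.3 TPM in C3.2 parental cells and at 0 in the other 6 libraries. *RNU6-112P* stood at 7.31 and 11.8 TPM in C3.2 parental cells, at 2.64 TPM in 1 C17.2 resistant library and at 0 elsewhere. *RNU6-914P* stood at 24.2 and 42.9 TPM in C17.2 resistant cells, against 0 and 5.84 TPM in parental cells. In C3.2 it stood at 14.2 and 10.8 TPM in parental cells, against 0 in both resistant libraries. For these copies, the 0 in C3.2 resistant replicate 2 carries no information, since the shortest small RNA above 0 there had 113 bases. The C3.2 comparisons of these copies thus rest on 1 resistant library. The call of *RNU6-31P* was lost when the 4 libraries of each clone were fitted alone. Those of *RNU6-112P* and *RNU6-914P* in C3.2 did not hold when 1 library was left out (adjusted p up to 0.0896 and 0.177). That of *RNU6-112P* was lost without either C3.2 parental library or resistant replicate 2, and that of *RNU6-914P* without any library other than those of C17.2 parental cells. In C17.2 the call of *RNU6-914P* was lost without either resistant library of that clone or either C3.2 parental library (adjusted p up to 0.140).

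Of the hosts of these copies, *PPM1K*, in an exon of which *RNU6-112P* lies, fell by 0.33 on the log2 scale in C3.2 resistant cells (adjusted p = 0.0133, limma). *HERC3* was not called in C17.2 (log2 fold change 0.11, adjusted p = 0.240). *NIPAL2*, the host of *RNU6-914P*, was called in neither clone.

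*RNU6ATAC*, the U6 counterpart of the minor spliceosome, rose in C17.2. It stood at 446 and 468 TPM in parental cells and at 593 and 604 TPM in resistant cells. In C3.2 it stood at 438 and 425 TPM in parental cells and at 473 and 455 TPM in resistant cells. The groups did not overlap in either clone. The log2 fold change was 0.23 with a standard error of 0.0637 in C17.2 (adjusted p = 0.0410, limma) and 0.04 in C3.2 (adjusted p = 0.752). The difference between the clones was not called (0.19, adjusted p = 0.238). The C17.2 call was lost in 7 of the 8 fits that left out 1 library (adjusted p up to 0.157), all except that without C17.2 parental replicate 2.

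**Figure D5:**
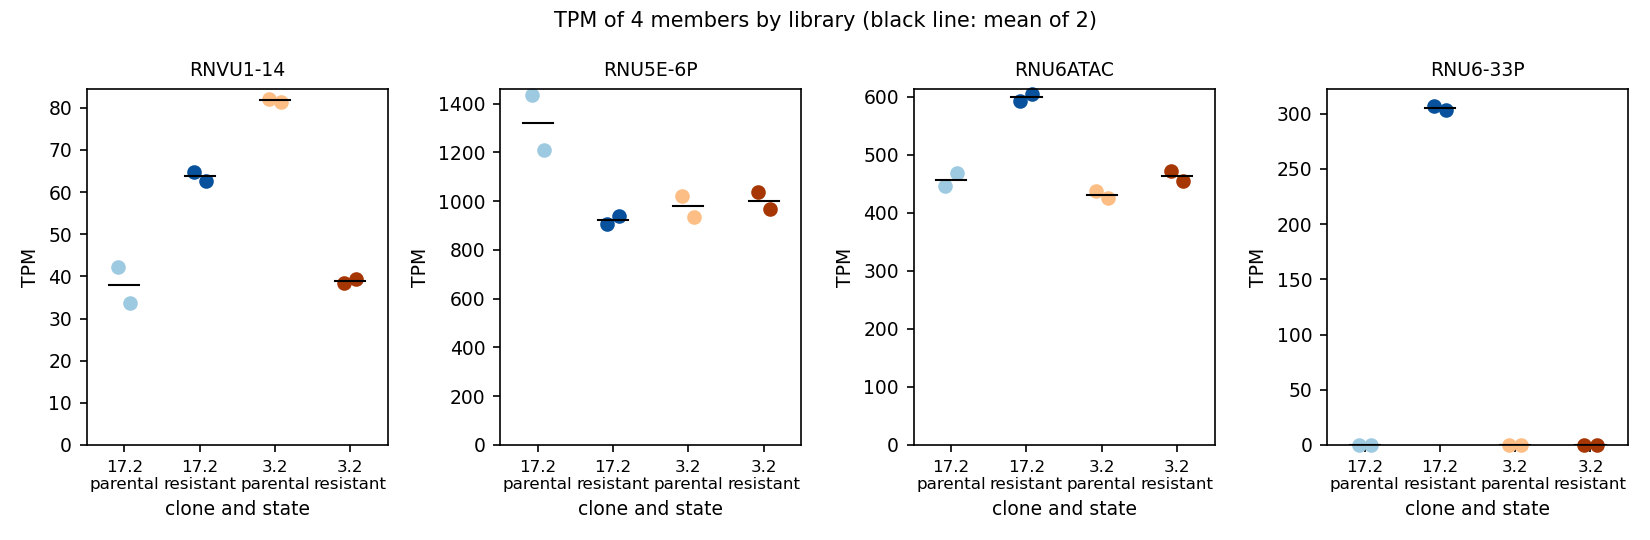
TPM of *RNVU1-14*, *RNU5E-6P*, *RNU6ATAC* and *RNU6-33P* in each of the 8 libraries (points; the line is the mean of 2; axes start at 0). *RNVU1-14* was higher in C17.2 resistant cells and lower in C3.2 resistant cells than in parental cells, and *RNU6-33P* was listed above 0 in the 2 C17.2 resistant libraries alone.

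The other minor snRNAs showed no called change in their main genes. *RNU12* stood at 2557 and 2951 TPM in C17.2 parental cells and at 2871 and 2737 TPM in resistant cells (log2 fold change -0.13, adjusted p = 0.606, limma). In C3.2 it stood at 2157 and 1701 TPM in parental cells and at 1600 and 1847 TPM in resistant cells (-0.22, adjusted p = 0.436). *RNU4ATAC*, the partner of *RNU6ATAC*, had log2 fold changes of 0.0022 and 0.35 (adjusted p = 1 and 0.284). Each of the lower level minor copies that were called was listed above 0 in C17.2 parental cells alone: *RNU6ATAC10P*, in an intron of *CHSY3*, at 8.81 and 7.82 TPM, and *RNU4ATAC16P*, in an intron of *WNK1*, at 3.81 and 3.5 TPM. *WNK1* itself moved the other way in that clone (log2 fold change 0.18, adjusted p = 0.0354).

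Also called at low levels were 2 U2 copies. *RNU2-22P* stood at 0.87 and 0.85 TPM in C17.2 parental cells and at 0 in resistant cells (adjusted p = 0.0495, limma), and at 0.39 and 1.35 TPM against 0 in C3.2, where it was not called. *RNU2-18P* stood at 1.31 and 3.46 TPM in C3.2 resistant cells and at 0 in the other 6 libraries. The call of *RNU2-22P* was lost without any 1 library of C17.2 or of C3.2 resistant cells (adjusted p up to 0.151), and that of *RNU2-18P* without any 1 library of C17.2 or of C3.2 parental cells.

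The proteins that build and carry snRNAs were set beside the RNAs. Of 114 listed genes for snRNP proteins and for snRNA transcription, processing and transport, 113 were tested. In C17.2, 29 were called higher and 7 lower, where 13.4% and 13.9% of all genes tested were, with a median log2 fold change of 0.12, against 0 for all genes tested. In C3.2, 5 were called higher and 2 lower, where 4.46% and 6.9% of all genes were, with a median of -0.02. The C17.2 total of called genes was 21 without parental replicate 2 and 23 without parental replicate 1, and on TPM as deposited it was 56, of which 53 were higher. The C3.2 total was 0 without either of its parental libraries, 1 without resistant replicate 2, 15 without resistant replicate 1 and 4 without any 1 C17.2 library, and it was 15, of which 14 were higher, when TPM was rescaled to the protein-coding total.

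In C17.2 the called genes included 4 higher and 1 lower of the 8 Sm core genes, whose proteins form the ring on U1, U2, U4 and U5, and 3 higher and 1 lower of the 7 genes of the LSm ring of U6. Among the U2 proteins 5 of 12 were higher, and among the U4/U6 and U5 proteins 6 of 17, with 0 lower in each. Of all genes tested, 13.4% were higher and 13.9% lower. Of 19 genes for export, the SMN complex and the cap, 5 were higher and 1 lower, and of 11 minor spliceosome genes 2 and 1. Of 13 transcription genes 1 was higher and 1 lower, and of 16 Integrator genes 1 and 2. Of 3 U1 proteins 1 was higher, and of 7 genes for end processing and modification 1, with 0 lower in each. Over the whole list, the largest rises were in *NCBP2*, the small subunit of the nuclear cap-binding complex, *SNRPG*, an Sm core protein, and *LSM3*. *SNRPG* stood at 77.9 and 80.2 TPM in parental cells and at 137 and 138 TPM in resistant cells (log2 fold change 0.63, adjusted p = 0.000476, limma). *NCBP2* rose by 0.72 and *LSM3* by 0.58 on the log2 scale (adjusted p = 0.000172 and 0.00285). The largest falls were in *ELL2*, an elongation factor, *NABP1*, a partner of the Integrator complex, and *CLNS1A*, the chaperone that hands Sm proteins to the SMN complex (-0.57, -0.52 and -0.51; adjusted p = 0.0295, 0.00493 and 0.00133).

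In C3.2 the largest rises were in *ARMC7*, *INTS3* and *NABP2* (0.50, 0.28 and 0.27; adjusted p = 0.0123, 0.0339 and 0.0179, limma). The falls were in *PDCD7*, a protein of the U11/U12 snRNP (-0.30, adjusted p = 0.0222), and *SNRPN*, an Sm core protein (-0.27, adjusted p = 0.0104). *NCBP2* was called higher in C3.2 as well, by 0.22 (adjusted p = 0.0281), and its rise was larger in C17.2 (difference 0.50, adjusted p = 0.00694).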

How the data were processed

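RNA-seq of 8 libraries (2 of each clone and state) was analyzed. The authors used Trim Galore 0.6.3 for trimming, STAR 2.7.9a for alignment (GRCh38.p13) and RSEM 1.3.1 with Gencode 31 for quantification, and deposited TPM per gene, unscaled between libraries. The labels describe single-end reads and the methods paired-end reads. Members were chosen by annotation and TPM. The members and lists were chosen with earlier results of these data known.

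Genes at 1 TPM in at least 1 library were kept. Each library was scaled by a trimmed mean of its log2 ratios against the average library, dropping the outer 30% of ratios and 5% of mean levels on either side, which gave factors from 0.893 to 1.16. Log2(scaled TPM + 1), which understates the change of low genes, was fitted in limma 3.58.1 (R 4.3.3) with an intensity trend in 1 model of the 4 groups, two-sided, with Benjamini-Hochberg adjustment over all genes tested. The study's own limma-voom analysis starts from counts, so it could not be run on TPM. The labels name no batch. The library numbers in the titles form a separate run for each clone, so anything that differs between those runs and the clones cannot be told apart. Family sums replaced the members by 1 row per family. Shares were compared by exact permutation. On simulated data for C17.2 with 15614 genes, 100% of 200 genes given a change of 1 on the log2 scale were recovered, with 3.38% of calls false. Smaller changes were not simulated.

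Sequences and positions came from Gencode 44, whose primary assembly is that of the authors' build. 178 of 179 members matched by gene identifier. Some sequences and 1 host gene are not reported here. Elements in the RNA were searched by exact letters, and U4 and U4atac were searched for the Sm site only. The named members were those without a symbol ending in P and with a mean of at least 10 TPM, the 10 with the highest mean, and the 3 largest rises and falls among the calls of each comparison; other called members and the rest of the named low copies were chosen after their values were seen. Of the gene list, the 3 largest rises and falls among the calls of each clone were named.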

Additional observations from a re-analysis of the deposited data

Results flagged for a closer look

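For 10 members the change from parental to resistant cells differed between the clones by limma's test of the difference (C17.2 minus C3.2, log2(scaled TPM + 1) scale). That is 10 of the 179 members tested, where 9.9% of all genes tested were called. The difference was 1.70 for *RNVU1-14* and -0.64 for *RNU5E-6P*, which were above 0 in all 8 libraries. Of the 10, 6 were called in every setting tried. These were *RNVU1-14*, *RNU6-33P*, *RNU6-446P*, *RNU6-31P*, *RNU4ATAC16P* and *RNU6ATAC10P*. All of them but *RNVU1-14* were above 0 in 1 group only and were tested through that group, so their calls are no support. *RNVU1-15* was lost in all 8 fits without 1 library, *RNU6-112P* in 5, and *RNU6-914P* and *RNU5E-6P* in 4 each. The U6 copies among the 10 carry no information in C3.2 resistant replicate 2, whose shortest small RNA above 0 had 113 bases. The 8 members other than *RNVU1-14* and *RNU5E-6P* were listed at 0 in at least 1 group, so their values depend on the pseudocount. They were 8.07 for *RNU6-33P*, 7.36 for *RNU6-914P*, 4.35 for *RNU6-112P*, 4.18 for *RNU6-446P*, 3.66 for *RNU6-31P*, 3.42 for *RNVU1-15*, -2.20 for *RNU4ATAC16P* and -3.19 for *RNU6ATAC10P*.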

How the results depend on the processing

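No paired analysis was possible because the labels give no replicate numbers shared between the groups. The causes of the changes below were not tested. Members called in C17.2 (9) were 23 on TPM as deposited, 24 after quantile normalization, 5 among genes at 1 TPM in all 8 libraries and 23 with each clone alone, and between 10 and 36 without 1 library. In C3.2 (17) they were 5 on TPM as deposited, 5 after quantile normalization, 4 with no filter, 2 with each clone alone, 7 with identical copies summed, and between 4 and 30 without 1 library. For the difference between the clones (10) they were 22 after quantile normalization, 2 among genes at 1 TPM in all libraries, and between 13 and 37 without 1 library. Families called in C17.2 (0) were 1, U6atac, on TPM as deposited, on TPM rescaled over protein-coding genes, after quantile normalization and with the stricter filter; without 1 library they were between 0 and 1, and between 0 and 2 in C3.2 and in the difference. snRNP and biogenesis genes called in C17.2 (36) were 56 on TPM as deposited, 56 on the protein-coding scale and between 21 and 40 without 1 library. In C3.2 (7) they were 15 on the protein-coding scale, 0 with each clone alone, 4 with no trend and between 0 and 15 without 1 library.

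With *RN7SK* left out of the snRNA sum, the difference in the U1 share was 0.85 percentage points in C17.2 in place of 4.37, and 2.23 in C3.2 in place of -1.09, and in C17.2 that of U2 was 0.078 and that of U5 was -0.27. Leaving out symbols ending in P also drops *RNU2-2P*, *RNU1-27P* and *RNU1-28P*, so that setting does not remove diverged copies alone. Without symbols ending in P, differences in C17.2 were 0.039 for U2, -0.0997 for U6, -5.11 for RNVU1, 2.22 for U5A, -2.06 for U5B and -0.54 for U5E. With *RNVU1-18* not counted as a variant, those of RNVU1 were -2.35 and 1.87.

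The log2 fold changes that changed sign were all uncalled. In C17.2 they were, on TPM as deposited, *RNU2-1* 0.13, *RNU5B-1* 0.14, *RNU5E-1* 0.16, *RNU12* 0.029, U4 0.056, U5 0.15, U12 0.030 and U4atac 0.15. On the protein-coding scale they were *RNU2-1* 0.051, *RNU5B-1* 0.068, *RNU5E-1* 0.081, U5 0.070 and U4atac 0.073, and after quantile normalization *RNU2-1* 0.29, *RNVU1-7* 0.018, *RNU5E-1* 0.22, U5 0.099 and U4atac 0.075. In C3.2 they were *RNU5E-6P* 0.034 and U1 0.0068 on TPM as deposited, *RNU4-2* 0.032, *RNU5E-6P* 0.072 and U1 0.044 on the protein-coding scale, and after quantile normalization *RNU4-1* 0.062, *RNU4-2* 0.15, *RNU5A-1* 0.14, *RNU5B-1* 0.056, *RNU5E-6P* 0.14, *RNU12* 0.023 and U12 0.054. Without 1 library, values in C17.2 lay between -0.28 and 0.015 for *RNU12*, -0.28 and 0.016 for U12, -0.095 and 0.16 for *RNU4-2*, -0.19 and 0.19 for *RNU4ATAC*, -0.11 and 0.078 for *RNU5B-1*, -0.075 and 0.068 for *RNU5E-1*, -0.011 and 0.17 for U1, -0.24 and 0.026 for U4, -0.20 and 0.18 for U4atac, and -0.078 and 0.048 for U5. In C3.2 they lay between -0.033 and 0.23 for *RN7SK*, -0.38 and 0.093 for *RNU5D-1*, -0.14 and 0.37 for *RNU5E-1*, -0.12 and 0.053 for *RNU5E-6P*, -0.0070 and 0.083 for *RNU6ATAC*, and -0.0085 and 0.077 for U6atac.

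TPM as deposited shifted the median of all genes by 0.13 in C17.2 and 0.053 in C3.2. Library factors computed without the members, a choice made after seeing the data like the summing of identical copies and the changes to *RN7SK* and *RNVU1-18*, left 9 and 17 members called.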
